A study of Rattus norvegicus with 6 samples.

Results

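The genes described here encode the nuclear subunits of the mitochondrial respiratory chain and of the ATP synthase, measured in the spinal cord of rats with experimental neuromyelitis optica (ENMO) or experimental autoimmune encephalomyelitis (EAE) and in controls. They were chosen by gene name, with no use of measured values: names that begin with Ndufa, Ndufb, Ndufc, Ndufs or Ndufv (complex I), Sdha, Sdhb, Sdhc or Sdhd (complex II), and names that begin with Uqcr (complex III), Cox4 to Cox8 (complex IV) or Atp5 (complex V, the ATP synthase). The rule took 85 of the 36410 targets of the array, which carry 77 gene names and 94 probes. Of these names, 5 belong to proteins that are no subunits. Ndufaf1 and Ndufa12l (now Ndufaf2) help to assemble complex I, Cox4nb is now named Emc8, and Atp5s and Atp5sl are now named Dmac2l and Dmac2. The remaining 80 targets of 72 genes fell into complex I (36 targets), complex II (4), complex III (7), complex IV (17) and complex V (16).

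All animals were Lewis rats, 7 to 8 weeks old, and RNA came from formalin-fixed, paraffin-embedded spinal cord sections. Each of the 6 groups was 1 RNA pool on 1 one-colour Agilent array, from 5 rats or, for the healthy control, 3 rats. ENMO rats had received T cells specific for myelin basic protein (day 0) and NMO-IgG, an antibody preparation that binds aquaporin-4, the water channel of astrocytes (day 4). EAEcoI rats had received the same T cells and human control IgG, and EAEcoP rats the same T cells and PBS. The groups NMO-IgG only and control IgG only had the antibody and no T cells, and the healthy control was untreated. Treated rats were killed 24 h after the antibody or PBS. ENMO, EAEcoI and EAEcoP are called all T, and the other 3 arrays all non-T. In RNA from whole sections, fewer cells of a type cannot be told apart from less RNA per cell.

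In oxidative phosphorylation, complexes I and II take electrons from NADH and succinate and pass them through ubiquinone to complex III, through cytochrome c to complex IV, and there to oxygen. Complexes I, III and IV pump protons, and complex V makes ATP from the returning flow. Every complex except complex II is built from nuclear and mitochondrially encoded subunits, so both genomes have to be expressed together. Neurons and their axons in the spinal cord depend on this pathway, and loss of complex I and complex IV activity is a known feature of inflammatory demyelinated lesions.

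The nuclear genes of this pathway are known to share promoter elements, and the promoters of a few members are shown with these elements marked. Promoter windows of 300 bases, from 250 bases before to 50 bases after the transcript start, came from RefSeq (build GRCr8) and were held for 65 of the 77 genes. Genes without one included Cox4i2, Cox6a1, Cox6c, Cox6c1, Uqcr, Uqcrb, Ndufa8, Ndufa10l1, Ndufb9, Atp5h and Atp5sl. Searched on both strands were CGCANGCGC (a core of the NRF1 site), CCGGAAG (the ETS site bound by GABP), AAGATGGCG (a core of the YY1 site, which holds an ATG) and TATAAA (the TATA box). A palindromic NRF1 site matches on both strands and was counted once per gene. Atp5i codes for a membrane subunit of the ATP synthase, Ndufa6 and Ndufs7 for complex I subunits, and Cox6a2 for the heart and muscle form of a complex IV subunit. The matches stand in capitals, and each window is written 5′ to 3′ on the strand of its gene. In the labels, chr14.0, chr7.0 and chr1.0 stand for chromosomes 14, 7 and 1.
Atp5i (now Atp5me, chr14.0:1464610-1464909, plus strand): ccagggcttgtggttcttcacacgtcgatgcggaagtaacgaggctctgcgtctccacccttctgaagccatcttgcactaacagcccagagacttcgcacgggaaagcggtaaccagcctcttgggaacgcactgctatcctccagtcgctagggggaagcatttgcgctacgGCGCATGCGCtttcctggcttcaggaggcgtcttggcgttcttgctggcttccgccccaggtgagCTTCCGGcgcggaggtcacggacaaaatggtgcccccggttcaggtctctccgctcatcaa
Ndufa6 (chr7.0:115750268-115750567, minus strand): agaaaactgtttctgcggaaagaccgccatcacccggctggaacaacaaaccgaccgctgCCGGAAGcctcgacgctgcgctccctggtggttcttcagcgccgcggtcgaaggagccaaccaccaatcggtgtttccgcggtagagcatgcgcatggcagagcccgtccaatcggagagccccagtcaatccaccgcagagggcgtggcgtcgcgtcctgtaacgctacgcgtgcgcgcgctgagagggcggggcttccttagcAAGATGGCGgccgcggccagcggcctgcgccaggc
Ndufs7 (chr7.0:10110449-10110748, minus strand): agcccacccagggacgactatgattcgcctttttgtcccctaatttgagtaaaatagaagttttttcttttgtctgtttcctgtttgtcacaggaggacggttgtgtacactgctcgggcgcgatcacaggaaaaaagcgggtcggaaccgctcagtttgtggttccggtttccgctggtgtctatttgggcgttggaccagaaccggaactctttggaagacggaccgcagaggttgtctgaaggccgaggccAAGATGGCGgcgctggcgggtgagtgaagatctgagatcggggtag
Cox6a2 (chr1.0:192219667-192219966, minus strand): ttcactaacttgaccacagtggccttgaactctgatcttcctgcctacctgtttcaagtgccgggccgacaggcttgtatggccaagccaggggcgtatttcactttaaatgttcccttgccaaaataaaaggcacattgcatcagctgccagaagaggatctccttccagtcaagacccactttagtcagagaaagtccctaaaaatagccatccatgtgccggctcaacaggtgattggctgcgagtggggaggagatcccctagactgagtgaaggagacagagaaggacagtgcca

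Atp5i had an NRF1 match at bases 175 to 184 of its window and an ETS match at bases 240 to 246. Ndufa6 had an ETS match at bases 61 to 67 and a YY1 match at bases 266 to 274, and Ndufs7 a YY1 match at bases 255 to 263, both after the transcript start. Cox6a2 had no match to any of the 4 strings. Of the 65 member genes, 17 (26.2%) had the NRF1 string, against 8.24% of 18999 protein-coding genes with a promoter in the same table. The ETS string was found in 20 (30.8%, against 11.6%) and the YY1 string in 10 (15.4%, against 2.33%), while TATAAA was found in 4 (6.15%, against 13.96%). At least one of the NRF1, ETS and YY1 strings stood in 39 promoters of the 65, against 19.5%. A match is a description of the letters and no test of binding.

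**Figure D1:**
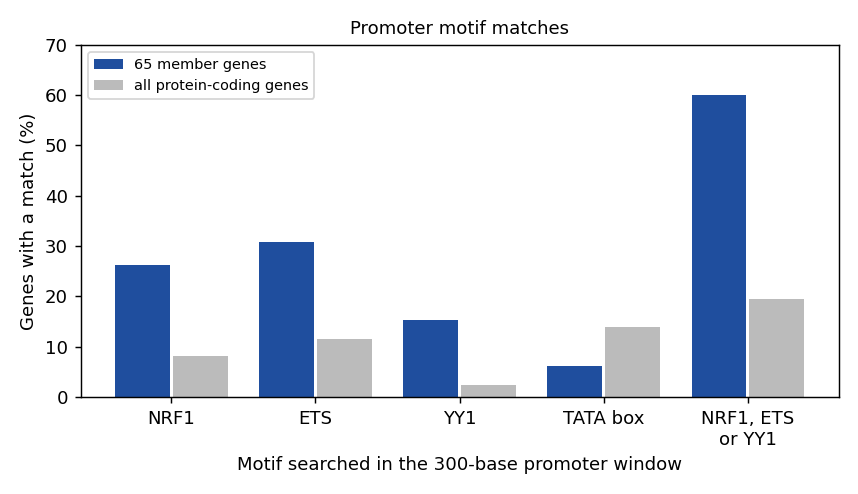
Share of genes (%) with a match to each motif in the 300-base promoter window, for the 65 member genes with a promoter (blue) and for 18999 protein-coding genes (grey). The blue bars are higher for NRF1 (26.2% against 8.24%), ETS and YY1, and lower for the TATA box (6.15% against 13.96%).

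Levels are given as normalized signal intensity (NSI), the background-corrected spot intensity on a linear scale after quantile normalization over the 6 arrays. A target was called detected on an array where its spot was well above the local background by the scanner software's mark. The mark is set on each array by itself, before normalization. A target can thus be undetected on 1 array at a higher NSI than on another that detects it. Among others, this holds for Ndufv2, Uqcrfs1 and the gene-strand probe of Cox8b below. Such calls are no measure of a difference between groups. Between the spots of probes printed 10 times, the SD was 0.53 on the log2 scale. This gave an SD of 0.44 for a log2 ratio of 3 arrays over 3, 0.65 for 1 over 2, and 0.75 for 1 over 1, and it covers neither rats nor pools. A member was counted as higher or lower past 1.5-fold, and a ratio was formed only where at least 1 array on each side detected the target. The probes have their own hybridisation strength, so NSI values of different genes are not compared.

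Across the arrays, 35.4% to 60.2% of all spots were well above background, with the highest share in EAEcoP. ENMO, EAEcoP and control IgG only shared 1 slide and the other 3 arrays another, so that the EAE arrays sat on different slides. Oligodendrocyte markers were detected on every array (10 to 12 of 12 targets), neuron markers less widely (5 to 13 of 15), astrocyte markers on 2 to 9 of 11 targets, and T cell markers on 5 of 10 targets in each all T array and on 3 to 4 in the others. The summed NSI of the T cell markers was 1011 to 2648 on the all T arrays and 966 to 1094 on the others, and that of the myeloid markers 4517 to 15979 against 2556 to 4293. By target, 3 of 9 myeloid markers were higher and 2 lower past 1.5-fold in all T over all non-T (median log2 ratio -0.03). Of 4 T cell markers with this ratio, 1 was higher and 0 lower (median -0.14). The summed NSI was also taken for other cell types. That of the astrocyte markers was 302 to 684 on the all T arrays and 1550 to 2510 on the others. That of the neuron markers was 1103 and 1323 in EAEcoP and control IgG only and 17333 to 34951 elsewhere. These sums add linear values, so that a few bright targets can set them. By target, 3 of 11 neuron markers were higher and 3 lower past 1.5-fold in EAEcoP over EAEcoI (median log2 ratio -0.02, lowest -7.36). Oligodendrocyte markers summed to 5981 in EAEcoP and to 2363 to 3360 elsewhere. In EAEcoP over EAEcoI, 7 of their 12 targets were higher and 0 lower (median 0.84), against 26.7% and 39.8% of all targets. Adipocyte markers summed to 2794 in ENMO and to 203 to 493 elsewhere. By target, 1 of 4 was higher and 1 lower past 1.5-fold in ENMO over EAE (median log2 ratio 0.01, highest 3.27). The part of these cells in the values below was not tested.

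Of the 85 targets, 40 (47.1%) were detected on all 6 arrays, 39 on some and 6 on none, against 30.5% of all targets on all arrays and 31.4% on none. The 6 silent targets were Ndufa1, Ndufa9 (1 of its 2 targets), Ndufab1, Ndufs4, Uqcrb and Atp5s. Of the 39 on some arrays, 13 were detected in EAEcoP alone, among them Cox7b, Sdhc and Uqcrc2. EAEcoP detected 78 of the members, EAEcoI 62, ENMO 55, healthy control 53, NMO-IgG only 52 and control IgG only 47. The shares of all targets detected stood in the same order of arrays, with 61.4%, 56.0%, 46.5%, 43.8%, 42.4% and 37.5%. Those of the members were 91.8%, 72.9%, 64.7%, 62.4%, 61.2% and 55.3%. On all 6 arrays were 18 of 36 targets of complex I, 1 of 4 of complex II, 2 of 7 of complex III, 9 of 17 of complex IV and 9 of 16 of complex V. The median over members of the mean NSI was 48.0, against 14.4 over all targets, and 13 members (15.3%) had a mean NSI over 500, against 4.38% of all targets. The subset on all arrays, with its differences between arrays, is drawn by complex.

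**Figure D2:**
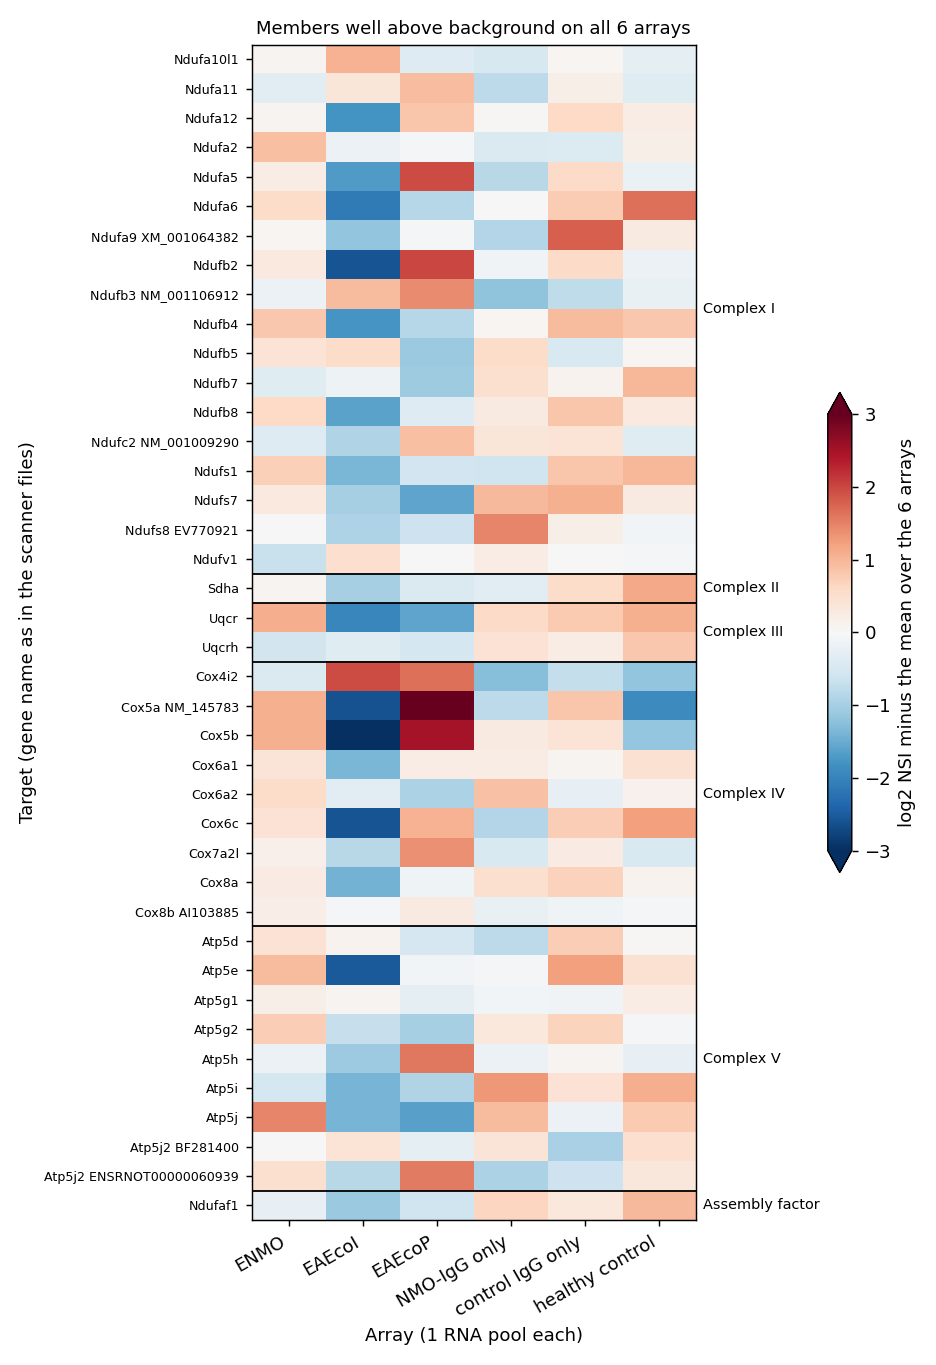
log2 NSI of the 40 members detected on all 6 arrays, each minus its own mean over the arrays (colour, blue below and red above, cut at 3), in rows by complex and in columns by array. The EAEcoI column is the lowest of the 6 for 22 members, the EAEcoP column the highest for 12.

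Of the 8 targets of complex I core subunits, 4 were detected on all arrays and 0 on none. Ndufs1, the largest iron-sulphur subunit of complex I, had an NSI of 318 in ENMO, 75.9 and 131 in EAEcoI and EAEcoP, and 129.8, 348 and 388 on the non-T arrays (the non-T arrays stand in the order NMO-IgG only, then control IgG only, then healthy control, here and below). Ndufv1, which binds NADH, read 160.0 in ENMO, 363 and 256 in EAEcoI and EAEcoP, and 299, 259.8 and 246 on the non-T arrays. Ndufs1 was thus lowest in EAEcoI, while Ndufv1 was highest there and lowest in ENMO. Ndufv2, an iron-sulphur subunit beside the NADH site, read 16.7 in ENMO, 18.7 and 28.5 in EAEcoI and EAEcoP, and 16.1, 18.5 and 4.33 on the non-T arrays, and was detected on the all T arrays alone.

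Of complex II, Sdha, the flavoprotein that oxidises succinate, was on all arrays with 81.6 in ENMO, 38.7 and 57.8 in EAEcoI and EAEcoP, and 61.7, 114 and 171 on the non-T arrays, and was lowest on both EAE arrays. Sdhb, its iron-sulphur partner, read 13.5 in ENMO, 3.29 and 44.8 in EAEcoI and EAEcoP, and 2.44, 4.11 and 8.07 on the non-T arrays, and passed background in ENMO and EAEcoP alone. In complex III, the Rieske iron-sulphur protein Uqcrfs1 read 9.41 in ENMO, 8.45 and 6.92 in EAEcoI and EAEcoP, and 5.18, 14.6 and 12.01 on the non-T arrays, and passed background on both EAE arrays alone. Uqcrc1, a core protein of complex III, read 6.92 in ENMO, 133 and 276 in EAEcoI and EAEcoP, and 37.01, 29.3 and 28.2 on the non-T arrays. Uqcrc1 was thus high on both EAE arrays and at background in ENMO, at least 25.6-fold lower there. Uqcrq, a small subunit of the same complex, read 9.11 in ENMO, 164 and 342 in EAEcoI and EAEcoP, and 28.4, 9.82 and 5.29 on the non-T arrays. It was also highest on both EAE arrays, was lowest in healthy control, and was undetected in ENMO (at least 26.0-fold lower than EAE), control IgG only and healthy control.

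In complex IV, Cox4i1, the common form of subunit 4, read 13.03 in ENMO, 15 and 61.6 in EAEcoI and EAEcoP, and 8.64, 19.5 and 8.23 on the non-T arrays, and was detected in EAEcoI and EAEcoP alone. Cox5a, a subunit on the matrix side, read 110.1 in ENMO, 8.62 and 567 in EAEcoI and EAEcoP, and 30.7, 94.3 and 14 on the non-T arrays. Cox5a was the lowest of all arrays in EAEcoI and the highest in EAEcoP, with the other arrays in between. The catalytic head of complex V was represented by Atp5a1 with 33.6 in ENMO, 39.8 and 63.9 in EAEcoI and EAEcoP, and 28.97, 38.8 and 7.89 on the non-T arrays, undetected in healthy control, and by Atp5b with 14.6 in ENMO, 3.92 and 15.7 in EAEcoI and EAEcoP, and 6.38, 3.96 and 7.70 on the non-T arrays, detected in EAEcoP alone. Neither head subunit was detected on all arrays.

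The probes of some members lie on the strand opposite to their gene. The strand of a probe was read from the order of its coordinates in the scanner files, whose genome build is not given in the sources used here, and set against the strand of the gene in RefSeq. Of 75 member probes that could be placed on the same chromosome, 10 (13.3%) in 9 targets ran opposite, against 4.17% of 16267 other probes. Among members listed by a GenBank sequence, 7 of 9 probes ran opposite (77.8%), against 7.28% of 2473 other such probes. These were the GenBank targets of Atp5j2, Cox5a, Cox8b, Ndufb3, Ndufc2 and Ndufs8, each of which has a further target on the strand of the gene. The other opposite probes were the RefSeq targets of Cox7a2l, Ndufa1 and Uqcrh. For Cox8b and Ndufc2 the probes themselves show it, since a stretch of 21 bases in the probe of one target is the reverse complement of the other. The stretches are given within 30 of the 60 bases of each probe, with the shared bases in capitals.
Cox8b, RefSeq target NM_012786: CCAGCAGGATGGGTCTTATCCcacttggag
Cox8b, GenBank target AI103885: GGATAAGACCCATCCTGCTGGaaccatgaa
Ndufc2, RefSeq target NM_001009290: ACATCCAGAAGATTTTCCTGAaaaagagaa
Ndufc2, GenBank target AA891171: ttctctttcTCAGGAAAATCTTCTGGATGT

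The paired targets of one gene did not read alike. Cox8b, the heart and muscle form of a small complex IV subunit, had an NSI of 32.9 in ENMO, 11.4 and 14.8 in EAEcoI and EAEcoP, and 30.8, 19.3 and 23.5 on the non-T arrays by the probe on the gene's strand, and passed background in ENMO and EAEcoP alone. The opposite probe read 268 in ENMO, 224 and 279 in EAEcoI and EAEcoP, and 199, 213 and 222 on the non-T arrays, detected on all arrays, with every all T array above every non-T array by a small margin. Ndufs8, an iron-sulphur subunit of complex I, read 3.62 in ENMO, 9.62 and 30.1 in EAEcoI and EAEcoP, and 4.70, 8.32 and 3.96 on the non-T arrays by its RefSeq probe, detected in EAEcoP alone. Its opposite probe read 61.4 in ENMO, 32.4 and 40.2 in EAEcoI and EAEcoP, and 172, 70.5 and 58.4 on the non-T arrays, detected on all arrays, highest in NMO-IgG only and lowest in EAEcoI. The opposite Cox5a probe read 13.3 in ENMO, 10.14 and 45.1 in EAEcoI and EAEcoP, and 5.69, 5.01 and 7.99 on the non-T arrays, detected on both EAE arrays alone. A value of these targets is therefore given as that of the probe.

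The first comparison asks how the subunits stand in rats that had received T cells. All T over all non-T could be formed for 56 members. Of these, 20 were higher and 16 lower past 1.5-fold, with a median log2 ratio of -0.03. Over all 17798 targets with a ratio, 17.6% were higher and 29.6% lower, with a median of -0.22. Among the 40 members on all 6 arrays, 11 were higher and 15 lower (median -0.30), against 16.3% and 28.2% of 11103 targets. By complex, 9 of 26 complex I targets were higher and 8 lower, and 2 of 2 complex II targets were lower. Complex III had 2 higher and 2 lower of 4, complex IV 5 higher and 1 lower of 10, and complex V 4 higher and 2 lower of 13. Leaving out EAEcoP moved the count of higher members from 20 to 8, with no share of all targets set beside it.

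The highest ratio among members on all arrays was that of Cox4i2, the isoform of subunit 4 known from lung and for its induction at low oxygen. Its NSI was 693 in ENMO, 3614 and 2953 in EAEcoI and EAEcoP, and 386, 571 and 415 on the non-T arrays. Every all T array was above every non-T array, and both EAE arrays were above ENMO. The all T mean was above the all non-T mean by 5.29-fold in NSI, and the limma fit gave a log2 difference of 2.11 with an SE of 0.69 and an adjusted p of 0.304. Ndufb3, an accessory subunit of complex I, read 387 in ENMO, 846 and 1160.3 in EAEcoI and EAEcoP, and 191, 258 and 371 on the non-T arrays, also with every all T array above every non-T array, 2.92-fold in the means.

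Further members with high ratios did not separate the arrays. Cox5a by its RefSeq probe was 4.94-fold higher in the all T mean, which its EAEcoP value set. Cox5b, a matrix-side subunit, read 299.9 in ENMO, 17.02 and 812 in EAEcoI and EAEcoP, and 173, 189.7 and 64.2 on the non-T arrays (2.65-fold), again with EAEcoI lowest and EAEcoP highest of all arrays. Atp5j2, the f subunit of the ATP synthase, read 80.2 in ENMO, 32.2 and 168 in EAEcoI and EAEcoP, and 29.6, 37.2 and 72.3 on the non-T arrays by the probe on its strand (2.02-fold). In Cox5a and Cox5b the all T arrays reached both below and above every non-T array, and in Atp5j2 EAEcoI lay within the non-T range. The log2 ratio of Cox5b turned to -0.33 with another background correction (normexp).

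In the other direction stood Atp5i, the e subunit of the ATP synthase, whose NSI was 3162 in ENMO, 1726 and 2417 in EAEcoI and EAEcoP, and 11232, 6184 and 9675 on the non-T arrays. All T arrays were below all non-T arrays without overlap, 3.71-fold lower in the means. The limma fit gave a log2 difference of -1.89 with an SE of 0.53 and an adjusted p of 0.255, the lowest of any member. Ndufs7, which carries the last iron-sulphur cluster before ubiquinone, read 11442 in ENMO, 4697 and 3093 in EAEcoI and EAEcoP, and 18258, 19375 and 11181 on the non-T arrays (2.54-fold lower), with ENMO within the range of the non-T arrays. Ndufa6, an accessory subunit of complex I, read 193 in ENMO, 30.6 and 73.5 in EAEcoI and EAEcoP, and 132, 225 and 412 on the non-T arrays (2.59-fold lower), likewise with ENMO inside the non-T range. The assembly factor Ndufaf1 read 64.8 in ENMO, 35.3 and 50.7 in EAEcoI and EAEcoP, and 120.1, 94.4 and 151 on the non-T arrays (2.42-fold lower), and here the groups did not overlap. Uqcrh, the hinge protein of complex III, read 37.6 in ENMO, 42.7 and 38.01 in EAEcoI and EAEcoP, and 74.1, 64.2 and 97.2 on the non-T arrays by a probe on the opposite strand, again without overlap.

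Of the 40 members on all arrays, 3 (Ndufb3, Cox4i2 and the opposite-strand probe of Cox8b) had every all T array above every non-T array, 7.5% against 8.09% of all such targets. Every all T array was below every non-T array for 4 (Ndufb7, Uqcrh, Atp5i and Ndufaf1) of the 40, against 10.4%. In limma, with all T and all non-T as groups of 3 arrays and the different treatments of a side standing in for replicates, 0 of 78 members and 0 of 24775 targets (0.0%) passed an adjusted p of 0.05. At an unadjusted p under 0.05 were 8 members (10.3%), 5 higher and 3 lower, against 11.4% of all targets. Leaving out ENMO, 178 of 24625 targets (0.723%) passed the adjusted threshold and still 0 members. The lowest adjusted p of a member in that limma fit was 0.0635, and 16 members (20.5%) were under the unadjusted threshold, against 17.6%. The shares of members were close to those of all targets in these counts.

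**Figure D3:**
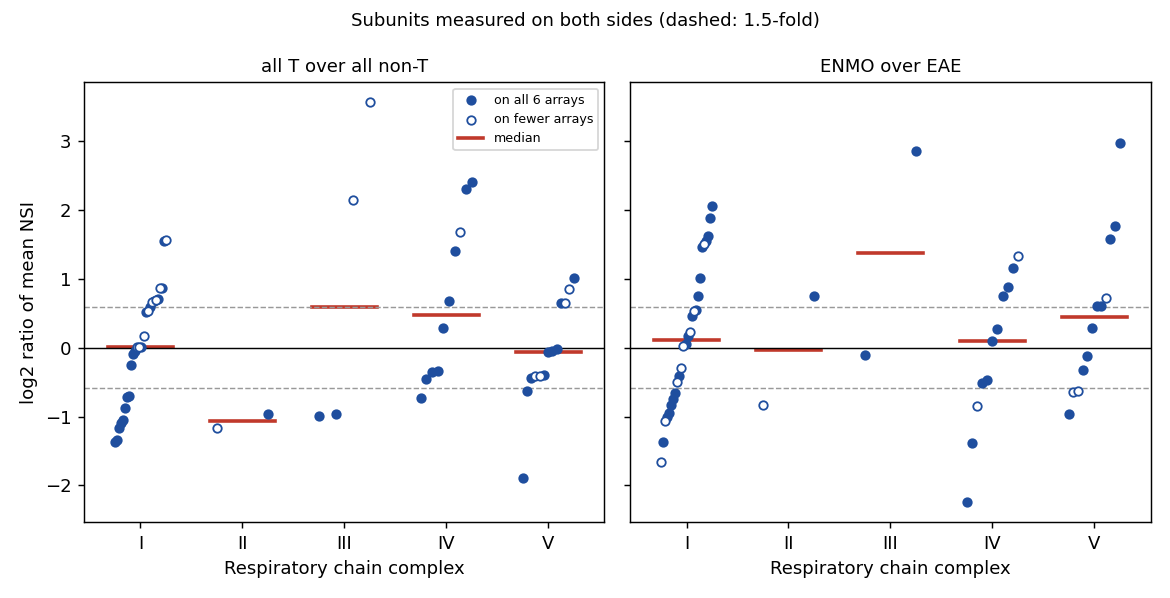
log2 ratio of mean NSI for each subunit target measured on both sides, by complex, for all T over all non-T (left) and ENMO over EAE (right), with filled points for targets detected on all 6 arrays, open points for the rest, red lines for medians and dashed lines at 1.5-fold. Members of each of complexes I, IV and V lie on both sides of 0 in both comparisons.

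The second comparison asks what NMO-IgG adds to T cells. ENMO over the mean of EAEcoI and EAEcoP could be formed for 55 members, of which 22 were higher and 15 lower past 1.5-fold, with a median log2 ratio of 0.22. Of all 16601 targets, 33.2% were higher and 23.3% lower, with a median of 0.21. Complex I had 8 higher and 8 lower of 26, complex IV 4 and 3 of 11, and complex V 6 and 3 of 12. Of the 6 core complex I targets measured here, 4 were higher, the opposite-strand probe of Ndufs8 among them, and 1 lower. Without EAEcoP the median was 0.92, with 30 members higher and 6 lower, and without EAEcoI it was 0.23. No values over all targets were set beside these.

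The members were also split by the strength of their spots, the mean NSI over the same 6 arrays that are compared. A target could thus pass a level through only the arrays where it was high. Ndufb3 was over 500 on the EAE arrays alone, and Atp5j and Ndufb4 on the other arrays alone. Of the 13 with a mean NSI over 500, 11 were higher in ENMO than in EAE past 1.5-fold and 2, Cox4i2 and Ndufb3, were lower (median log2 ratio 1.47). Of 1494 other targets over the same level, 37.8% were higher and 30.7% lower, with a median of 0.22. The weaker members on all arrays did not show this, with 4 higher and 4 lower of 16 at a mean NSI of 100 to 500 (median 0.07, against 0.22 for other targets), and 3 higher and 3 lower of 11 under 100 (median -0.10, against 0.32). Both EAE arrays were below all 4 other arrays for 10 of the 13, against 26.3% of those other targets. Over all 40 members on all arrays this order held for 14 (35.0%, against 24.7%). The reverse order, with both EAE arrays above the rest, held for 3 (Ndufa11, Ndufb3 and Cox4i2, 7.5% against 10.6%). These shares are counts over targets of the same 6 pools and carry no test.

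**Figure D4:**
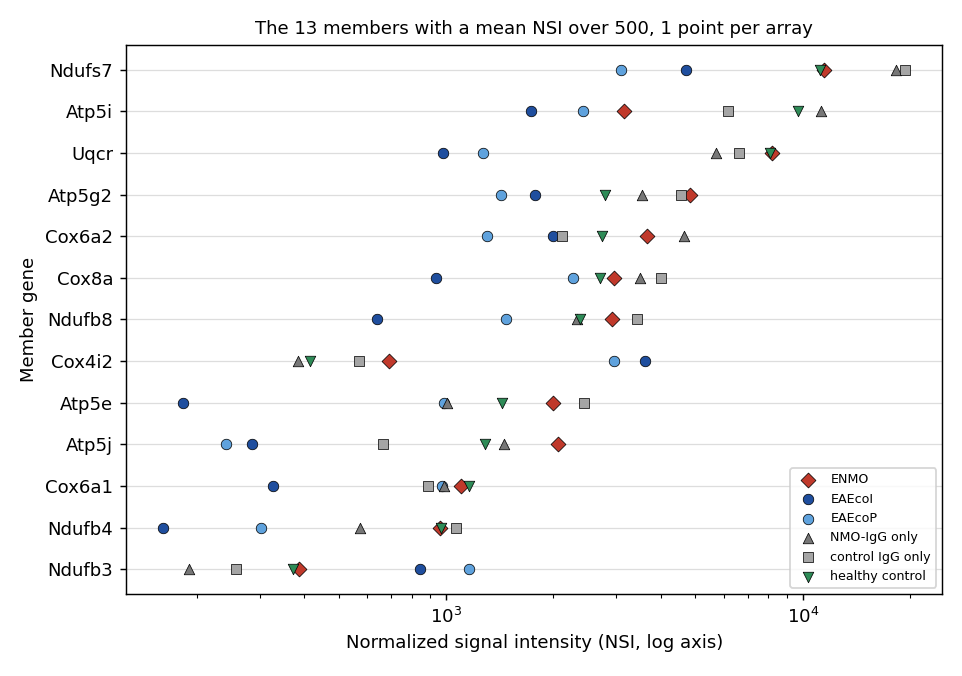
NSI (log axis) of the 13 members with a mean NSI over 500, 1 point per array. The EAE arrays (blue circles) lie left of ENMO (red diamond) for 11 genes and right of it for Cox4i2 and Ndufb3.

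Atp5j, the F6 subunit of the stalk that holds the ATP synthase head, had the highest ratio among members detected on all arrays. Its NSI was 2065 in ENMO, 286 and 241 in EAEcoI and EAEcoP, and 1449.6, 664 and 1282 on the non-T arrays, so that both EAE arrays were below every other array and ENMO was above every other array. ENMO was 7.84-fold above EAE. Uqcr (now Uqcr11), a small subunit of complex III, read 8186 in ENMO, 983 and 1267 in EAEcoI and EAEcoP, and 5715, 6635 and 8063 on the non-T arrays (7.27-fold). Its ENMO value lay beside the healthy control and both EAE values far below all others. Ndufb4, an accessory subunit of complex I, read 963 in ENMO, 161 and 302 in EAEcoI and EAEcoP, and 572, 1065 and 970.2 on the non-T arrays (4.16-fold), with both EAE arrays the lowest and ENMO within the non-T range.

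Ndufa6, given above, was 3.71-fold higher in ENMO. Atp5e, the epsilon subunit of the central stalk, read 1995 in ENMO, 183 and 984 in EAEcoI and EAEcoP, and 1005, 2436 and 1437 on the non-T arrays (3.42-fold), with EAEcoI far below and EAEcoP just below the remaining arrays. Atp5g2, one of the c-ring subunits, read 4811 in ENMO, 1779.8 and 1425 in EAEcoI and EAEcoP, and 3543, 4560.3 and 2784 on the non-T arrays by its brighter probe (log2 ratio 1.59). A second Atp5g2 probe, at an NSI of 58.7 in ENMO and 71.5 and 132.7 in EAEcoI and EAEcoP, had the opposite order. Cox8a, the common form of its subunit, read 2965 in ENMO, 936 and 2268 in EAEcoI and EAEcoP, and 3499, 4012 and 2699.9 on the non-T arrays (1.85-fold), and both EAE arrays were again the lowest. Ndufs7 was 2.94-fold above EAE in ENMO and Ndufs1 3.07-fold.

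Among members detected on all arrays, the lowest ratio was that of Cox4i2, 4.74-fold lower in ENMO than in EAE, with ENMO nearer to the non-T arrays. Ndufb3 was 2.59-fold lower and Ndufa11, an accessory subunit of complex I that read 66.4 in ENMO, 108 and 158 in EAEcoI and EAEcoP, and 48.1, 94.3 and 64.7 on the non-T arrays, 2-fold lower. For these 3 genes both EAE arrays were above ENMO and above every non-T array. Cox5a (2.61-fold lower) and Atp5h, the d subunit of the ATP synthase stalk with 19.5 in ENMO, 10.4 and 66.1 in EAEcoI and EAEcoP, and 19.5, 23.3 and 18.6 on the non-T arrays (1.95-fold lower), had ENMO between the EAE arrays. Without EAEcoP their log2 ratios turned to 3.68 and 0.92. Ndufa2, an accessory subunit of complex I, read 540.2 in ENMO, 256 and 280.0 in EAEcoI and EAEcoP, and 212, 215 and 323 on the non-T arrays by the probe detected on all arrays, where ENMO was the highest of the 6 (2.01-fold over EAE). A second Ndufa2 probe was detected in EAEcoP alone, with an NSI of 3.33 in ENMO and 2.87 and 10.097 in EAEcoI and EAEcoP, and with the mean over both probes the log2 ratio was 0.078 in place of 1.01. With the deposited values, which were not normalized between arrays, the log2 ratios of Ndufa2 and Atp5g2 turned to -0.51 and -0.057, while the median of all targets was -0.48.

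The EAE arrays differed from each other, which bears on each mean above. EAEcoP over EAEcoI, a comparison added after the values were seen, could be formed for 61 members, of which 30 were higher in EAEcoP and 13 lower, with a median log2 ratio of 0.58. Of all 18367 targets, 26.7% were higher and 39.8% lower, with a median of -0.27. In complex IV, 9 of 12 targets were higher and 1 lower (median 1.81). EAEcoI was the lowest of the 6 arrays for 22 of the 40 members on all arrays (55.0%), against 15.1% of other targets, while EAEcoP was the lowest for 7 (17.5%), against 48.6%. EAEcoI was thus the lowest array more often than EAEcoP among members, and less often among other targets. At a mean NSI over 500, EAEcoI was the lowest for 7 of 13 members (53.8%), against 25.5% of 1494 other targets. EAEcoP was the lowest there for 4 (30.8%), close to the 30.5% of other targets.

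Within the members, this difference went with the base composition of the probe. Of the 10 members on all arrays with a probe GC content of 40% or less, all 10 were above 0 and 7 past 1.5-fold, with a median of 5.44-fold. Of the 19 with over 40% to 50%, 11 were higher past 1.5-fold and 3 lower (median 1.88-fold), and of the 11 with over 50%, 0 were higher and 4 lower (median 0.80-fold). Spearman's rho between GC content and log2 ratio was -0.68 over these 40 members and 0.10 over 11063 other targets, as a description of probes on the same pair of arrays. Among 1750 other targets with a GC content of 40% or less, 26.3% were higher past 1.5-fold and 918 targets were lower (median 0.62-fold). With over 40% to 50%, 18.2% of 5106 other targets were higher and 2583 were lower (median 0.66-fold). With over 50%, 20.6% of 4207 were higher and 1646 were lower (median 0.81-fold), a median close to that of the members. Whether base composition has a part in these values was not tested.

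The probes with the lowest and the highest GC content among the members on all arrays show the contrast, here by their last 30 bases.
Cox5a, RefSeq target NM_145783, 35.0% GC over the probe: gactttaataaagggaaatgagtttgaccc
Cox6a2, RefSeq target NM_012812, 60% GC over the probe: ctctccccagcgtagctctctgctcgctta

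Cox5a read 8.62 in EAEcoI and 567 in EAEcoP, while Cox6a2 read 1996 and 1301 there. Cox5b had probes of different GC content within 1 target, given here as an example and no test. Its probe with 38.3% GC read 17.02 in EAEcoI and 812 in EAEcoP, and its probe with 53.3% GC read 95.5 and 126. Ndufb2, an accessory subunit of complex I with a probe of 36.7% GC, read 116 in ENMO, 15.5 and 375 in EAEcoI and EAEcoP, and 87.8, 140.1 and 83.7 on the non-T arrays, again with EAEcoI the lowest and EAEcoP the highest array. Cox7a2, the common form of its subunit, was undetected in EAEcoI at 5.39 and read 174 in EAEcoP, at least 32.3-fold higher.

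**Figure D5:**
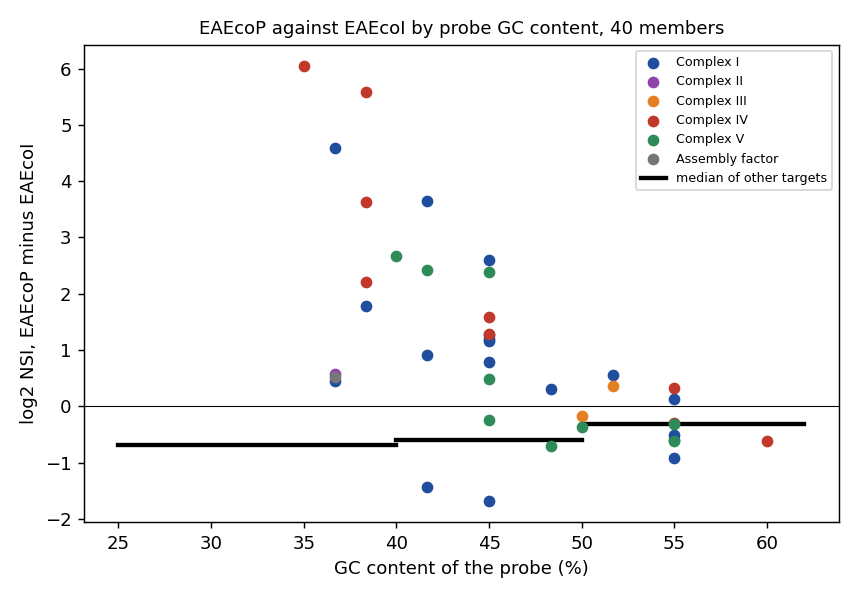
log2 NSI in EAEcoP minus EAEcoI against the GC content of the probe (%) for the 40 members on all arrays, coloured by complex, with black bars for the median of 11063 other targets in 3 classes of GC content. Members with 40% GC or less all lie above 0, the black bars all below 0.

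The mitochondrially encoded partners of these subunits, which no name of the rule takes, were also measured. They were represented by 7 targets, and all 7 were higher in EAEcoP than in EAEcoI past 1.5-fold (median log2 ratio 2.52), against 26.7% of all targets. COX2, a catalytic subunit of complex IV, had an NSI of 78245 in ENMO, 5755 and 38275 in EAEcoI and EAEcoP, and 103310, 135816 and 19750 on the non-T arrays. COX1, its other catalytic subunit, read 869.7 in ENMO, 801.7 and 4513 in the EAE arrays, and 864, 2277 and 175 on the non-T arrays. ATP6, the proton channel subunit of the ATP synthase, read 7006 in ENMO, 2662 and 17412 in the EAE arrays, and 9255, 6891 and 269.5 on the non-T arrays. COX1 and ATP6 were lowest in the healthy control, COX2 in EAEcoI. In all T over all non-T, 3 of the 7 were higher and 2 lower (all targets 17.6% and 29.6%), and in ENMO over EAE 2 were higher and 4 lower (all targets 33.2% and 23.3%).

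The antibody without T cells was compared by NMO-IgG only over the mean of control IgG only and healthy control. Of 51 members, 7 were higher and 14 lower past 1.5-fold, with a median log2 ratio of -0.12. Of all 14376 targets, 19.6% were higher and 16.5% lower, with a median of 0.06. Complex I had 4 higher and 8 lower of 24, complex IV 2 and 2 of 10, and complex V 0 and 3 of 11. Ndufs1 was 2.83-fold lower, Ndufa6 2.41-fold and Sdha 2.31-fold, while the opposite-strand probe of Ndufs8 was 2.67-fold higher. In the limma fit of NMO-IgG against no NMO-IgG, with T cells as a term, 0 of 78 members and 0 of 24775 targets (0.0%) passed the adjusted threshold. At an unadjusted p under 0.05 was 1 member (Atp5j), against 3.18% of all targets.

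T cells were also set against no T cells within each antibody, array by array. ENMO over NMO-IgG only had 15 of 47 members higher and 9 lower (median log2 ratio 0.40), against 17.9% and 21.4% of all targets (median -0.02). EAEcoI over control IgG only had 5 of 46 higher and 29 lower (median -1.26), against 21.5% and 33.3% (median -0.16). EAEcoP over healthy control had 18 of 53 higher and 21 lower (median -0.31), against 22.8% and 51.1% (median -0.62). The members' median was thus above 0 in the NMO-IgG pair and below 0 in the other 2 pairs, each of them 1 array against 1 array.

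Some further members were picked after their values were seen, for their spread between the EAE arrays. Ndufa5, an accessory subunit of complex I, read 208 in ENMO, 54.96 and 687 in EAEcoI and EAEcoP, and 99.7, 265 and 155 on the non-T arrays, with EAEcoI the lowest and EAEcoP the highest array. Cox6c, a small subunit of complex IV, read 60.1 in ENMO, 7.41 and 92.2 in EAEcoI and EAEcoP, and 24.2, 74.8 and 105 on the non-T arrays, again lowest in EAEcoI. Ndufb6, an accessory subunit of complex I, had the reverse order with 85.3 in ENMO, 507 and 30.03 in EAEcoI and EAEcoP, and 136, 36.2 and 38.2 on the non-T arrays, highest in EAEcoI and undetected in control IgG only. The c-ring gene Atp5g1 was even over the arrays, with 403 in ENMO, 374 and 289 in EAEcoI and EAEcoP, and 337, 329 and 412 on the non-T arrays. The 56 members with a ratio of all T over all non-T ranged from a log2 ratio of -1.89 to 3.56, the upper end being Uqcrq.

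Some members are forms that other tissues use. Cox6a2, the heart and muscle form, was detected on all arrays with 3667 in ENMO, 1996 and 1301 in EAEcoI and EAEcoP, and 4654, 2119.6 and 2743 on the non-T arrays, lowest on both EAE arrays (2.22-fold higher in ENMO). Its common counterpart Cox6a1 read 1098 in ENMO, 326 and 976 in EAEcoI and EAEcoP, and 989, 892 and 1158 on the non-T arrays, lowest in EAEcoI. Of 12 skeletal muscle targets, 5 to 8 were detected on each array, with a summed NSI of 2492 to 4270. Among them Tnni2, Mb, Des and Actn3 were detected on all arrays, and Tnnt3, Mylpf and Myh4 on none. The testis forms Cox6b2 and Cox8c were detected in EAEcoP alone, with 9.36 in ENMO, 5.76 and 10.14 in EAEcoI and EAEcoP, and 3.32, 2.38 and 8.59 on the non-T arrays for Cox6b2 and 2.65 in ENMO, 1.67 and 6.07 in EAEcoI and EAEcoP, and 1.69, 2.999 and 2.03 on the non-T arrays for Cox8c. Cox7a1, Cox7b2 and Cox8h were not among the gene names.

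Genes around the pathway were taken from lists. Since 0 of 24775 targets passed the adjusted threshold in limma, no target of any list did. Of the proteins that exchange ADP and ATP or limit the ATP synthase, 3 of 8 were higher and 2 lower in all T over all non-T, from Slc25a3, the phosphate carrier (log2 ratio 1.25), to Slc25a5, an ADP/ATP carrier (-1.09). Electron carriers and ubiquinone synthesis had 0 higher and 3 lower of 5, from Coq6 (-0.06) to Coq3 (-1.05). Assembly factors outside the name rule had 1 higher and 3 lower of 6, from Tmem126b (1.46) to Cox17, the copper chaperone of complex IV (-1.58). The citric acid cycle and pyruvate dehydrogenase had 2 higher and 3 lower of 12, from Pdha1 (1.06) to Dlat (-1.46). Glycolysis had 3 higher and 4 lower of 15, from Gapdh (1.43) to Pfkm (-1.62). Regulators of mitochondrial biogenesis had 1 higher and 5 lower of 10, from Esrra (1.85) to Ssbp1 (-3.96), the latter by a value of 935 in the healthy control alone. Genes of superoxide, nitric oxide and peroxide had 0 higher and 6 lower of 10, with Gpx1 the lowest (-3.22) and also high in the healthy control alone. All targets had 17.6% higher and 29.6% lower in this comparison.

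In ENMO over EAE, the ribosomal proteins of mitochondria, which translate the mitochondrially encoded subunits, had 21 higher and 7 lower of 39 (median log2 ratio 0.72), and those of the cytosol 25 and 21 of 72 (median 0.12). In EAEcoP over EAEcoI the order of these lists was turned, with 11 higher and 11 lower of 36 mitochondrial (median -0.07) and 51 higher and 5 lower of 77 cytosolic ribosomal protein targets (median 1.09). The medians of all targets were 0.21 and -0.27. The oxidative phosphorylation members had 0.22 and 0.58 in the same comparisons, which share the EAE arrays.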

How the data were processed

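RNA pools from 6 groups were labelled with Cy3 and hybridised to 1 one-colour Agilent whole rat genome array each. Per the study's methods, the RNA had first passed through 1 round of amplification. For Myo1f, which is not a member, the paper names non-linear amplification as the most likely reason why its qPCR differed from the array. The part of amplification in the values here was not tested. The deposited scanner files hold spot intensity values that the authors' scanner software had already corrected for local background and spatial trends, with no normalization between arrays. Per the file headers, marks of the same software give spots well above background, outlier spots and control spots. The authors also deposited 1 intensity per target, which equalled the processed signal within 1% for 99.5% of values.

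Control spots and outlier spots were dropped before the remaining spots of each probe were averaged, and the arrays were quantile normalized (R 4.3.3, limma 3.58.1), as the study's methods describe. The brightest probe over the arrays stood for a target. Linear means over arrays gave the ratios. limma was run on log2 NSI with Benjamini-Hochberg adjustment over 24775 targets detected on 1 array or more, for all T against all non-T, and for NMO-IgG against no NMO-IgG with T cells as a further term. Each group is 1 pool without replicates, so these p-values measure the spread between differently treated pools, and their precision is limited by the number of arrays. The limma step was tested on simulated data. Counts and sequence matches used Python 3.11.15 with pandas 2.3.3 and scipy 1.17.1, and promoters came from RefSeq.

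Values on all arrays were given for core subunits, for the highest and lowest members by complex and overall in both main ratios, for tissue-restricted isoforms and for members whose targets or probes disagreed, and other lists by their highest and lowest gene. Values of 1 core subunit are not reported here. The members and lists were chosen with earlier results of these data known. Alternatives covered background correction, normalization, probe choice, filters, thresholds, blocks and each array left out.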

Additional observations from a re-analysis of the deposited data

Results flagged for a closer look

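The members' median had different signs in the 3 pairs of arrays matched by antibody. The median log2 ratio of the members was 0.40 for ENMO over NMO-IgG only (all targets -0.02), -1.26 for EAEcoI over control IgG only (all targets -0.16) and -0.31 for EAEcoP over healthy control (all targets -0.62). In the last pair the members' median was below 0 but above that of all targets. Each value compares 1 array with 1 array, and the difference between the pairs was not tested.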

How the results depend on the processing

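In all T over all non-T, 20 members were higher and 16 lower. Shares of all targets were not set beside the counts of higher and lower members in this section. Higher members numbered 9 with normexp background correction, 10 with no background correction, 12 with the mean of log2 values, 11 among targets on all arrays and 9 at a 2-fold threshold. Lower members numbered 9 with normexp, 8 with the deposited values per target and 8 at 2-fold. The median was 0.53 with the deposited values (all targets 0.51). Leaving out 1 array gave 8 (without EAEcoP) to 21 higher, 11 to 22 lower and medians of -0.21 to 0.03.

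In ENMO over EAE, 22 were higher and 15 lower. Higher members numbered 11 with the deposited values and 13 at 2-fold. Lower members numbered 8 with normexp, 23 with the deposited values, 5 with the mean of log2 values, 9 on all arrays and 5 at 2-fold. The deposited values gave a median of -0.32 (all targets -0.48). Leaving out 1 array gave 20 to 30 higher, 6 (without EAEcoP) to 21 lower and medians of 0.23 to 0.92 (without EAEcoP). In NMO-IgG only over the other non-T arrays, 8 were lower with normexp and 8 at 2-fold, and 11 were higher with the mean of log2 values, 3 on all arrays and 2 at 2-fold. Leaving out 1 array gave 7 to 9 higher, 12 to 14 lower and medians of -0.29 to -0.10. Leaving out the opposite-strand targets, chosen after seeing the data, gave 19 higher and 14 lower of 49 in all T over all non-T.

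The sign of the log2 ratio turned for some named members. In all T over all non-T these were Cox5b (-0.33 with normexp, -0.42 with no background correction) and Atp5h (-0.45 without EAEcoP to 1.07 without EAEcoI). In ENMO over EAE these were Ndufaf1 (-0.10 with normexp, -0.11 with no background correction, -0.12 with the deposited values), Ndufa2 (-0.51) and Atp5g2 (-0.057) with the deposited values, Sdhb (0.15 with the mean of log2 values), Cox5a (0.66 with the mean of log2 values, 3.68 without EAEcoP, -2.36 without EAEcoI) and Atp5h (0.92 without EAEcoP, -1.76 without EAEcoI). In NMO-IgG only these were Cox6a2 (-0.19 scaled to the 75th percentile, -0.30 with the deposited values) and Cox5a (1.13 without control IgG only, -1.62 without healthy control). The cause was not tested.

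In limma, 0 members passed the adjusted threshold under every alternative run, and for NMO-IgG no array was left out. The labels carry no replicate numbers. With the antibody as a block, each T cell array was paired with the array of the same antibody. In that fit limma called 0 of 78 members and 0 of 24775 targets. At an unadjusted p under 0.05 were 7 members and 2562 of all targets, against 8 members and 2823 of all targets without the block. Members near background have only bounds on the arrays that did not detect them.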
